A study of Mus musculus with 12 samples.

Results

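Ribosome assembly and nucleolar genes were followed in 2 settings, regulatory T (Treg) cells of the injured spinal cord set against Treg cells of the spleen, and microglia kept with Treg cells set against microglia kept without them. The group was a list of 34 genes, of which 33 had a row among the 1284 genes of the deposited Treg table and 2, Heatr1 and Noc4l, had a row among the 2186 genes of the microglia table, out of 3188 genes in both tables. The list was chosen by the change of these same genes in these same libraries, and each table holds only genes that the authors found changed. The direction of a member is therefore a property of the choice, and the values below, the counts of limma calls included, only describe it.

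The libraries were bulk messenger RNA of mouse cells, 12 in all. At day 14 after a spinal cord injury, Treg cells were taken from the injured cord (3 libraries) and from the spleen of injured mice (3 libraries). Primary microglia were co-cultured with Treg cells (3 libraries) or left unstimulated as the control (3 libraries). Every animal behind the Treg libraries had been injured, so no group shows Treg cells of an uninjured mouse. The labels name no strain, age, sex or genotype, nor the way the cells were sorted. They do not say where the Treg cells of the co-culture came from. The header of the microglia fold changes calls the co-cultured side Young, and no label says what that word refers to. Nor do they tell if libraries of the same group came from different animals or cultures, so the spread between libraries may be technical.

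A ribosome is built around ribosomal RNA, which RNA polymerase I transcribes in the nucleolus as 1 long precursor. Small nucleolar ribonucleoproteins (snoRNPs) modify and help to cut the precursor, and a long series of assembly factors then folds it, joins it to ribosomal proteins and escorts the small and the large subunit to the cytoplasm. Resting lymphocytes make few ribosomes, and activation raises the output of the whole line, in part through the transcription factor Myc, which binds E-box sequences in the promoters of many assembly genes.

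Levels are FPKM, in which fragments are scaled by the length of the transcript and by the total of the library, and sequencing depth is unknown. Summed over the rows of the Treg table, FPKM lay between 111243 and 134887 in the spinal cord libraries and between 64893 and 65362 in the spleen libraries. Of the Treg identity markers only Ctla4, 1 of 6, had a row, with 175, 198 and 189 FPKM in the spinal cord and 36.0, 40.3 and 41.5 FPKM in the spleen, and the others are not analysed here. Markers of other cells moved with the groups. The 4 of 10 microglia and macrophage markers with a row were all higher in the spinal cord and summed to 65.2, 55.5 and 50.3 FPKM there, against 10.5, 9.77 and 18.8 FPKM in the spleen. The 2 of 5 neutrophil markers, S100a8 and Mmp8, summed to 28.4, 83.0 and 64.1 FPKM in the spinal cord, against 7.01, 9.77 and 4.22 FPKM in the spleen. Cnp, the 1 of 5 oligodendrocyte markers with a row, had 208, 159 and 207 FPKM in the spinal cord and 48.0, 52.0 and 56.7 FPKM in the spleen. The B cell gene Cd79b, 1 of 4 markers with a row, had 5.38, 3.13 and 2.66 FPKM in the spinal cord and was listed at 0 in all 3 spleen libraries, and none of the 4 astrocyte markers had a row. The part of these cells in the differences below was not tested. Spinal cord library 1 stood apart from the other 2 in its ribosomal protein genes, as given below.

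All 33 members with a row were lower in spinal cord Treg cells than in spleen Treg cells, and for all 33 the highest spinal cord library lay below the lowest spleen library. Among all genes of the table, 34.6% were lower without overlap, and 36.9% were lower in the authors' deposited fold changes. Limma, a linear model with variances shared across genes, put all 33 below a Benjamini-Hochberg adjusted p of 0.05. It called 38.6% of the 1072 genes tested lower. These were all 414 genes that were lower, so the call adds nothing to the direction. Since the members were picked for being lower, nothing is read from these shares. The members were between 2.15-fold and 3.72-fold lower in the spinal cord (median 2.53-fold). On the log2(FPKM + 1) scale, which understates differences of low genes, their differences ran between -1.83 and -0.91 with a median of -1.27. The median over all genes tested was 0.95, and over the 414 lower genes of the table it was -1.29, close to the median of the members. In these bulk libraries fewer cells of a type and less RNA per cell cannot be told apart.

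**Figure D1:**
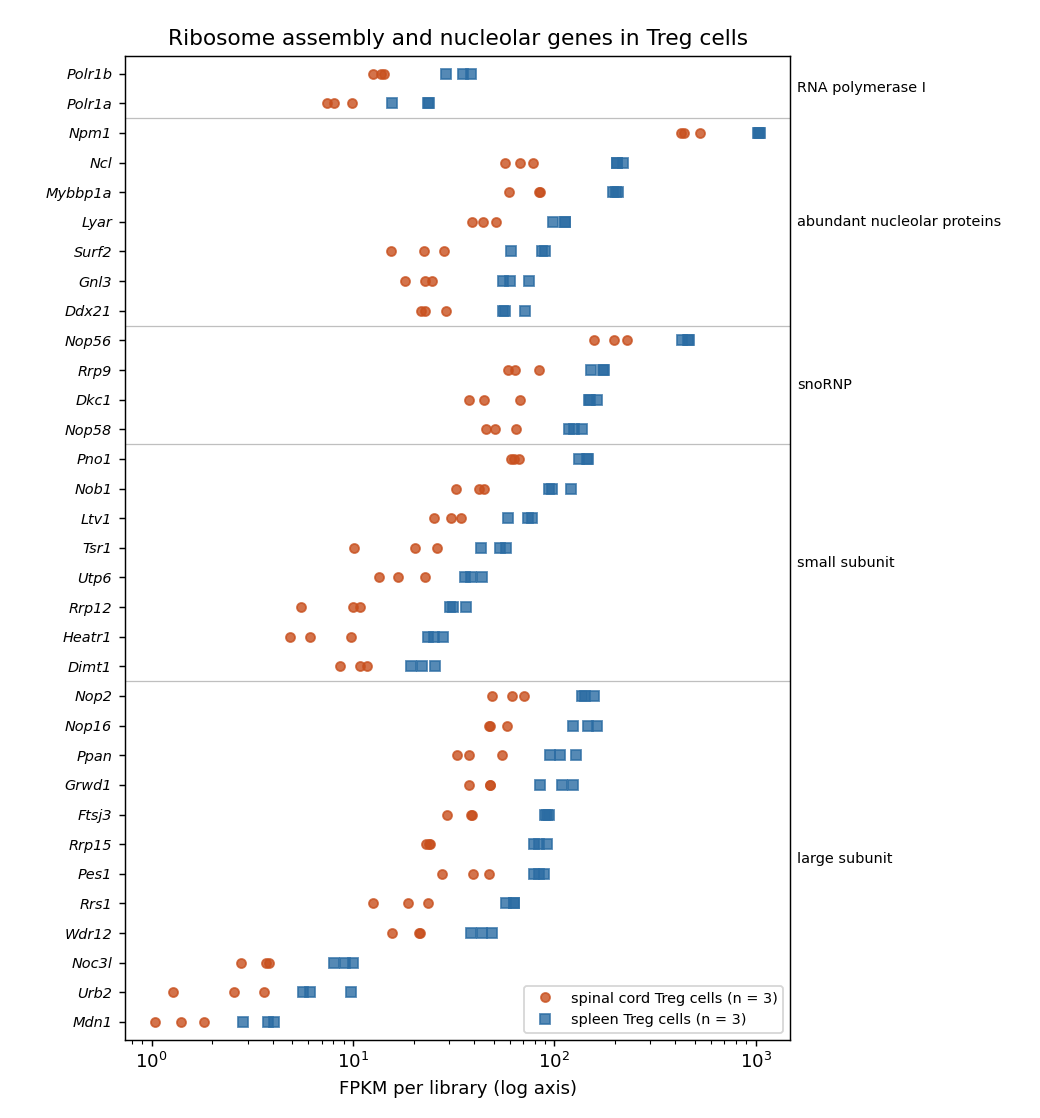
FPKM of the 33 members in each library on a log axis, grouped by role and, within a role, ordered by mean level, with spinal cord Treg libraries as circles and spleen Treg libraries as squares (n = 3 each). Every row shows the circles to the left of the squares without overlap, at levels that run from about 1.04 FPKM for Mdn1 to 1053.84 FPKM for Npm1.

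The line begins with RNA polymerase I, whose 2 largest subunits, which form its catalytic centre, were both in the list. Polr1a had 9.84, 7.41 and 8.05 FPKM in the spinal cord libraries and 15.71, 23.61 and 23.85 FPKM in the spleen libraries. That is 8.43 ± 1.26 FPKM in the spinal cord and 21.1 ± 4.63 FPKM in the spleen (SD, n = 3 each), 2.50-fold lower in the spinal cord. Polr1b had 13.86, 12.51 and 14.21 FPKM in the spinal cord and 38.58, 28.93 and 35.19 FPKM in the spleen, a log2 difference of -1.27 (SE 0.21). Spleen library 1 stood below the other 2 for Polr1a, and even that library exceeded every spinal cord library. Cd3eap, a further subunit of the enzyme that was not among the members, had 10.94, 8.25 and 12.29 FPKM in the spinal cord and 29.25, 31.83 and 34.13 FPKM in the spleen. It was the only one of 16 further polymerase I genes on a list of subunits and transcription factors to have a row.

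The abundant proteins that fill the nucleolus held the highest levels. Npm1 encodes nucleophosmin, a histone chaperone and scaffold of the outer nucleolar layer. It had 425.07, 441.50 and 526.70 FPKM in spinal cord Treg cells and 1053.84, 1036.68 and 1029.09 FPKM in spleen Treg cells. That is 464 ± 54.6 FPKM in the spinal cord and 1039.9 ± 12.7 FPKM in the spleen (SD, n = 3 each), 2.24-fold lower in the spinal cord, with spleen libraries that lay close together. By spleen level Npm1 ranked 1 among the 474 lower genes of the table, Nop56 ranked 3, Ncl ranked 12 and Mybbp1a ranked 14, so several of the most strongly expressed genes on the lower side were members.

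Ncl, which encodes nucleolin, a protein of ribosomal gene chromatin and precursor RNA, had 67.74, 56.90 and 78.82 FPKM in the spinal cord and 220.43, 204.55 and 203.84 FPKM in the spleen. Its log2 difference was -1.63 (SE 0.16), with 67.8 ± 11.0 FPKM in the spinal cord and 209.6 ± 9.38 FPKM in the spleen. Mybbp1a, a Myb-binding protein that acts on polymerase I transcription, had 85.17, 59.84 and 84.03 FPKM in the spinal cord and 196.45, 206.68 and 202.32 FPKM in the spleen. Both genes showed tight spleen groups and a low spinal cord library 2. Surf2, a nucleolar protein of the surfeit locus, showed the widest difference of this class. It had 22.56, 15.48 and 28.18 FPKM in the spinal cord and 60.73, 89.83 and 86.58 FPKM in the spleen, and was 3.58-fold lower in the spinal cord. Gnl3, nucleostemin, a GTP-binding protein of dividing cells, was 2.90-fold lower, with 21.9 ± 3.35 FPKM in the spinal cord and 63.6 ± 10.1 FPKM in the spleen. Ddx21, an RNA helicase that takes part in ribosomal RNA transcription and processing, was 2.50-fold lower, and Lyar, a zinc finger protein that regulates cell growth, was 2.41-fold lower.

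The snoRNP members included the 2 paired core proteins of the box C/D particles, which guide methylation of ribosomal RNA. Nop56 had 197.09, 158.20 and 229.17 FPKM in the spinal cord and 460.32, 467.90 and 431.01 FPKM in the spleen, while its partner Nop58 had 50.94, 45.63 and 64.89 FPKM in the spinal cord and 118.27, 124.68 and 137.46 FPKM in the spleen. The partners had the same log2 difference to 2 decimals, -1.23 (SE 0.16 for Nop56 and 0.17 for Nop58). Dkc1 encodes dyskerin, the pseudouridine synthase of the box H/ACA particles and a part of telomerase. It had 44.70, 37.51 and 67.96 FPKM in the spinal cord and 150.89, 148.09 and 162.52 FPKM in the spleen, the widest difference among the 4 (3.07-fold lower). Its spinal cord libraries were also the most spread of the 4 genes, with library 3 highest. Rrp9, the protein that is specific to the U3 particle needed for the first cuts, had 58.77, 83.81 and 64.04 FPKM in the spinal cord and 152.02, 176.98 and 174.41 FPKM in the spleen. Nolc1, a chaperone of snoRNPs that was not a member, had 51.76, 40.47 and 59.56 FPKM in the spinal cord and 125.88, 122.12 and 120.28 FPKM in the spleen, and was the only one of 15 further snoRNP genes to have a row.

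Small subunit members spanned early precursor binding to the last cut of 18S ribosomal RNA. Rrp12, which in yeast helps to export pre-ribosomes, had the widest log2 difference of all members, -1.83 (SE 0.27). Its levels were 10.03, 5.53 and 10.84 FPKM in the spinal cord and 30.48, 31.35 and 36.28 FPKM in the spleen. Heatr1, the counterpart of yeast Utp10 in the complex that binds the precursor first, had 9.76, 6.12 and 4.86 FPKM in the spinal cord and 23.55, 25.35 and 28.13 FPKM in the spleen. These were the 2 members with the largest folds, 3.72-fold lower for Rrp12 and 3.71-fold lower for Heatr1. Pno1 and Nob1 act together late, Nob1 as the endonuclease that makes the 3′ end of 18S ribosomal RNA and Pno1 as the RNA-binding partner that holds it back. Pno1 had 61.11, 63.11 and 66.46 FPKM in the spinal cord and 146.20, 133.29 and 147.39 FPKM in the spleen. Nob1 had 32.57, 44.74 and 42.08 FPKM in the spinal cord and 120.70, 97.19 and 94.53 FPKM in the spleen. Pno1 was among the most even members, while Nob1 had a high spleen library 1.

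Tsr1, a GTPase-like factor of the pre-40S particle, was the most uneven member of this class, with 26.18, 10.16 and 20.38 FPKM in the spinal cord and 43.02, 57.49 and 53.85 FPKM in the spleen. Its highest spinal cord library still lay below its lowest spleen library, with a log2 difference of -1.48 (SE 0.30). Ltv1, a late assembly factor, averaged 30.2 ± 4.65 FPKM in the spinal cord and 70.3 ± 10.0 FPKM in the spleen. Utp6, part of a complex of the early small subunit precursor, averaged 17.7 ± 4.72 FPKM in the spinal cord and 39.5 ± 4.01 FPKM in the spleen. Dimt1, which dimethylates 2 adenines of 18S ribosomal RNA, had the smallest fold of all members, 2.15-fold lower, at 10.4 ± 1.56 FPKM in the spinal cord and 22.4 ± 3.01 FPKM in the spleen. Dimt1, Pes1 and Npm1 sat nearest to the authors' limit of 1 on the absolute log2 scale, at -1.02, -1.02 and -1.03 in the authors' deposited table. Noc4l, the member counterpart of yeast Noc4, had no row in the Treg table and is not analysed there.

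Large subunit members were the most numerous, with 12 genes. Pes1 and Wdr12 belong to the PeBoW complex, which is needed to process the precursor of 28S and 5.8S ribosomal RNA. Pes1 had 39.64, 27.75 and 47.23 FPKM in the spinal cord and 88.77, 84.33 and 79.65 FPKM in the spleen, and Wdr12 was 2.25-fold lower at 19.5 ± 3.26 FPKM in the spinal cord and 43.9 ± 5.23 FPKM in the spleen. Nop2, a methyltransferase of 28S ribosomal RNA and the most strongly expressed of this class, had 61.95, 49.12 and 71.14 FPKM in the spinal cord and 137.86, 142.88 and 157.25 FPKM in the spleen. Ftsj3, a further RNA methyltransferase, related to yeast Spb1, had 38.85, 29.33 and 38.75 FPKM in the spinal cord and 90.37, 94.52 and 92.20 FPKM in the spleen. In each of these 4 genes all spinal cord libraries lay below all spleen libraries.

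Rrp15, counterpart of a yeast factor of the large subunit, and Rrs1, which in yeast helps to bring 5S ribosomal RNA into the particle, showed the widest log2 differences of the class. Rrp15 had 24.20, 23.75 and 23.10 FPKM in the spinal cord and 91.91, 84.17 and 79.01 FPKM in the spleen, with a log2 difference of -1.80 (SE 0.17). Rrs1 had 23.47, 18.78 and 12.59 FPKM in the spinal cord and 62.92, 63.01 and 57.59 FPKM in the spleen, with a log2 difference of -1.73 (SE 0.23). The spinal cord libraries of Rrp15 were nearly equal and those of Rrs1 were spread. Nop16, a nucleolar protein of the pre-60S particle, had 47.97, 47.66 and 58.03 FPKM in the spinal cord and 124.13, 163.35 and 146.54 FPKM in the spleen. Ppan, the counterpart of yeast Ssf1, was 2.62-fold lower. Grwd1, related to the yeast chaperone of ribosomal protein L3, was 2.37-fold lower.

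The lowest members were also large subunit factors. Mdn1 encodes midasin, a very large ATPase that strips assembly factors from the particle. It had 1.4, 1.82 and 1.04 FPKM in the spinal cord and 2.84, 4.04 and 3.78 FPKM in the spleen. Urb2, counterpart of an early yeast factor, had 2.56, 3.62 and 1.27 FPKM in the spinal cord and 5.63, 6.13 and 9.80 FPKM in the spleen, and Noc3l, counterpart of yeast Noc3, averaged 3.43 ± 0.576 FPKM in the spinal cord and 9.05 ± 0.971 FPKM in the spleen. At these levels the added 1 FPKM shrinks the log2 difference, which for Mdn1 was -0.91 (SE 0.29) on the log2(FPKM + 1) scale and -1.21 in the authors' deposited table.

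**Figure D2:**
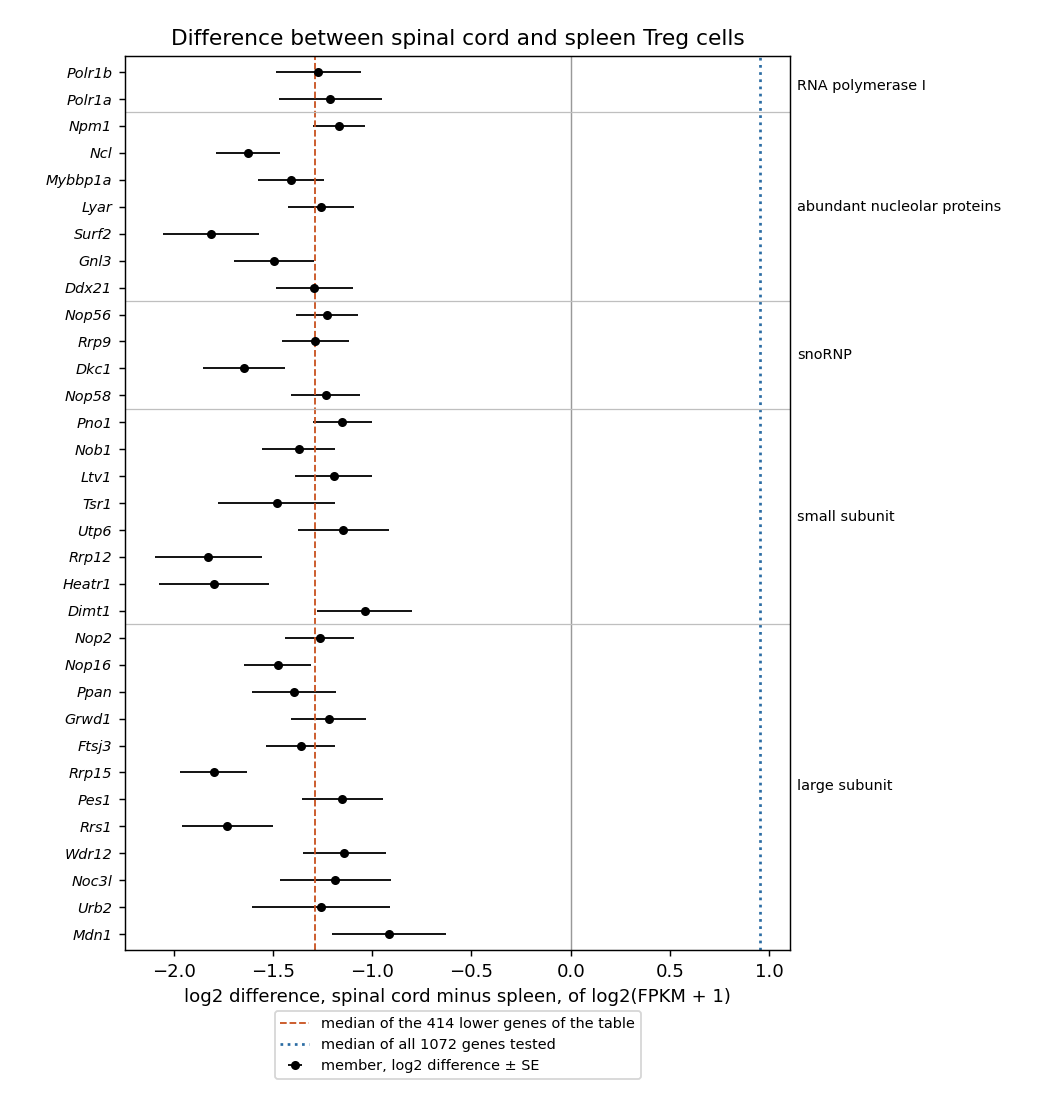
Log2 difference, spinal cord minus spleen, of log2(FPKM + 1) for each member with its limma standard error (3 libraries a group), ordered as in the plot of levels by library. The points lie between -1.83 and -0.91 around the dashed median of the lower genes (-1.29). The dotted line marks the median of all genes tested (0.95), and the gap to it follows from the selection of changed genes.

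Members of different roles were lower by like amounts, near the median of all 414 lower genes (-1.29), which passed the same limit of the authors. Nothing is read from this likeness. The median log2 difference was -1.24 for RNA polymerase I (2 genes), -1.41 for the abundant nucleolar proteins (7) and -1.26 for the snoRNP proteins (4). It was -1.28 for the small subunit (8) and -1.26 for the large subunit (12), and the differences between these medians were not tested. Summed over the 33 members, FPKM came to 1606, 1491 and 1850 in the spinal cord libraries and 4095, 4143 and 4067 in the spleen libraries. The spleen sums were close to each other, and the spinal cord sums were lower and more spread. As a share of the table's FPKM the members made up 1.44%, 1.11% and 1.43% in the spinal cord and 6.27%, 6.38% and 6.23% in the spleen.

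Within the spinal cord group the members did not vary alike. Library 2 was the lowest for 19 of the 33 members (57.6%), while it was the lowest for 41.6% of all genes tested and for 45.4% of the 381 other lower genes. Library 3 was the highest for 16 members (48.5%), for 29.5% of all genes tested and for 35.7% of the other lower genes. In the spleen the lowest library was number 1 for 15 members, number 2 for 6 and number 3 for 12. The median coefficient of variation of the members was 16.8% in the spinal cord and 10.2% in the spleen. Over the 414 lower genes it was 25.7% in the spinal cord and 15.2% in the spleen. Those 414 include the members, several of which are among the most strongly expressed, and the genes were not matched by level. Among the members the largest values belonged to Urb2, 47.4% in the spinal cord and 31.7% in the spleen.

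Leaving out 1 library at a time gave a median log2 difference of the members between -1.36 and -1.22, with all 33 lower each time. Scaling every library to an equal table total moved the median of all genes by -0.86 and the members' median to -2.19, and quantile normalization moved them by -0.42 and to -1.82. All 33 members stayed lower under both, but the size of the difference moved with the scaling.

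A set of 5 lists of further assembly genes, with the members left out, held 159 genes, of which 25 had a row in the Treg table. All 25 were lower in the spinal cord without overlap between the groups and all were called lower by limma, and none was higher, where 34.6% of all genes were lower without overlap and 38.6% were called lower. The lists were chosen with results of these data known, and nothing is read from these shares. The count held under each scaling and with each library left out. The rows of the table were selected as changed, so the listed genes without a row are not analysed here.

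Among small subunit genes 10 of 55 had a row, with a median log2 difference of -1.34. Wdr43, which binds the precursor while it is made, had 56.17, 39.65 and 37.39 FPKM in the spinal cord and 122.89, 126.09 and 116.26 FPKM in the spleen. Wdr46, a factor of the same early particle, had 28.72, 20.44 and 33.71 FPKM in the spinal cord and 89.48, 74.78 and 67.63 FPKM in the spleen. Among large subunit genes 10 of 57 had a row, with a median of -1.22. Rsl1d1, a nucleolar protein of that class, had 105.95, 81.32 and 108.24 FPKM in the spinal cord and 235.94, 222.65 and 215.52 FPKM in the spleen. Of the exosome, the complex that trims RNA from its 3′ end, 3 of 16 genes had a row (Exosc2, Exosc1 and Dis3), with a median of -1.24.

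Most neighbouring pathways gave the same direction where they had rows. Nucleotide synthesis had 5 of 20, Gart, Pfas, Ctps, Dhodh and Cad, all lower with a median of -1.19. Gart, an enzyme of purine synthesis, had 64.66, 54.57 and 67.55 FPKM in the spinal cord and 134.69, 141.01 and 145.96 FPKM in the spleen. Both mitochondrial ribosomal protein genes with a row, Mrpl50 and Mrpl38, were lower. Of the genes named as translation factors 4 had a row. Eif4g2, an initiation factor, and Eif2b1, a subunit of the exchange factor eIF2B, were lower, as was Eef1aknmt, which methylates an elongation factor, while Eif2ak2, a kinase that shuts down initiation, was higher. Of the Myc network 1 of 11 genes had a row: Mxd1, which encodes a repressor that competes with Myc for its partner Max. Mxd1 had 88.03, 63.29 and 75.95 FPKM in the spinal cord and 14.72, 15.51 and 15.55 FPKM in the spleen, and rose by a log2 difference of 2.23 (SE 0.19). None of 23 cell cycle genes had a row.

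**Figure D3:**
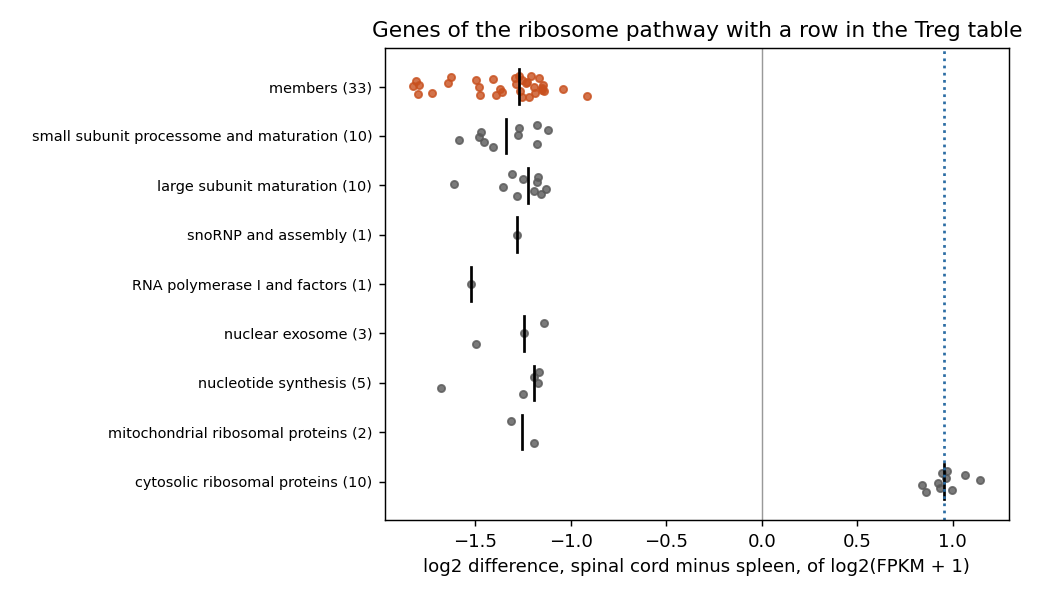
Log2 difference, spinal cord minus spleen, for the members and for further genes of the ribosome pathway with a row in the Treg table, 1 point a gene, black bars at the list medians, and the number of genes in brackets. The assembly, polymerase, exosome, nucleotide and mitochondrial lists lie below 0, and the 10 cytosolic ribosomal protein genes lie near the dotted median of all genes tested (0.95).

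The genes for cytosolic ribosomal proteins that had a row did not follow the assembly genes. They were found by a name pattern, so no number of listed genes is given. Those without a row are not analysed here. All 10 ribosomal protein genes with a row were higher in the spinal cord as deposited and called by limma, with a median log2 difference of 0.96. In this table limma called 61.0% of genes higher. The groups did not overlap for 7 of the 10. Over all 1284 genes of the table, the lower ones included, 746 (58.1%) were higher without overlap. That share is not one of the higher genes alone, so the 7 of 10 are not set against it. Their median log2 difference was close to the median of all genes (0.95), and it depended on the scaling. With equal totals it was 0.02, with 6 genes higher and 4 lower, of which limma called 0, and 0 had an unadjusted p under 0.05. With quantile normalization it was -0.15, with 4 genes higher and 6 lower, of which 1 was called. All genes of the table were selected as changed and more were higher, so 0.95 is no baseline of unchanged genes. Both scalings were also taken over these selected genes, the ribosomal protein genes included. The shift therefore cannot show which value is nearer to the cells. Rpl41 had 3460, 8391 and 7166 FPKM in the spinal cord and 3294, 2966 and 3055 FPKM in the spleen. Rps27 had 1766, 4776 and 5122 FPKM in the spinal cord and 1720, 1447 and 1601 FPKM in the spleen. Spinal cord library 1 lay just above the spleen libraries for both genes, and for Rpl39, with 313 FPKM, it lay inside the spleen range of 279 to 344 FPKM. Across the 10 genes this library lay above the spleen range for 7, inside it for 2 (Rpl37a and Rpl39) and below it for Rpl37, while libraries 2 and 3 lay above it for all 10. Among the 7, Rpl10a, with 859 FPKM in library 1 against at most 568 FPKM in the spleen, Rpl22l1, with 338 against at most 236 FPKM, and Rps15a, with 43.6 against at most 33.1 FPKM, stood well clear of the spleen. Without library 1 the median log2 difference was 1.35. Without library 2 the calls fell to 8 and without library 3 to 7. The assembly members showed no such split, since their median was -1.29 without library 1. Ribosomal protein genes and Npm1 have processed pseudogenes, between which reads could have been split.

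**Figure D4:**
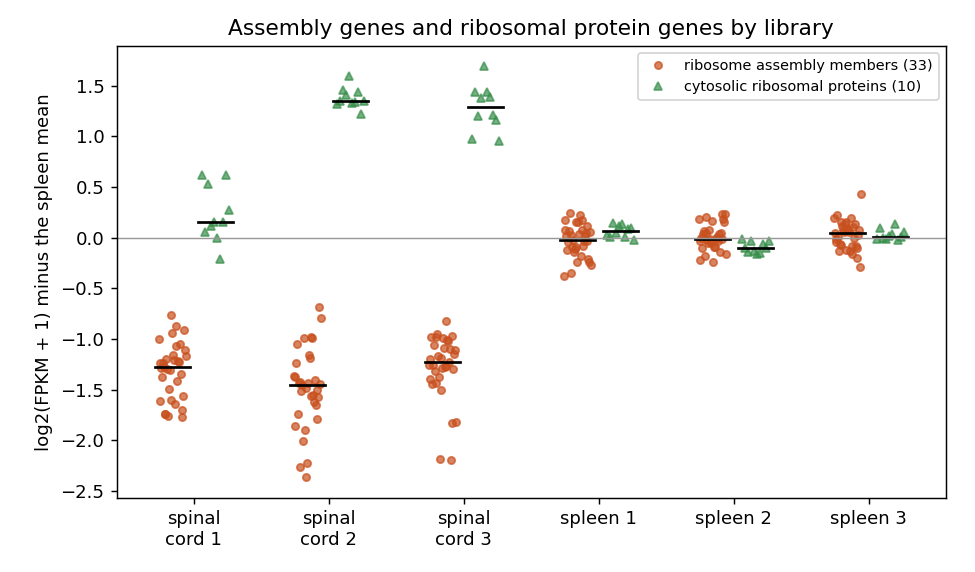
Deviation of log2(FPKM + 1) from the spleen mean for the 33 members (circles) and the 10 cytosolic ribosomal protein genes (triangles), by library, with black bars at the medians. The members lie below 0 in all 3 spinal cord libraries, while the ribosomal protein genes lie between -0.21 and 0.62 in spinal cord library 1 (median 0.16) and above 0 in libraries 2 and 3 (medians 1.34 and 1.29).

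The genes of the Treg table, outside the list, whose 6 library values were most like the mean of the members were Angptl2, Alg11 and Gart (Pearson's r of 0.999, 0.998 and 0.998 over 6 libraries). These correlations rest mostly on the gap between the 2 groups. Angptl2, a secreted angiopoietin-like protein, had 48.06, 39.67 and 49.28 FPKM in the spinal cord and 183.35, 168.86 and 181.34 FPKM in the spleen. The members' own correlation with that mean ran between 0.83, for Urb2, and 0.995.

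In the gene annotation of GRCm38 (GENCODE M21) the 34 members lay on 14 chromosomes. Npm1 spans chr11:33152498-33164142, Ncl chr1:86344719-86359455, Nop56 chr2:130274367-130279313 and Heatr1 chr13:12395375-12438893. Small nucleolar RNAs were annotated inside 7 of the 34 members (20.6%), on the same strand: Ncl, Gnl3, Nop56, Nop58, Dkc1, Tsr1 and Ppan. Such RNAs lay in 1.18% of all 21924 protein-coding genes, in 12 of the 433 other lower genes of the Treg table (2.77%) and in 5 of the 786 higher genes (0.636%). Nop56 carries Snord110 in an intron and Snord57, and Nop58 carries Snord11 and Snord70 in introns, so these genes for box C/D proteins also hold box C/D RNAs. Ncl carries Snord82 in an intron and Snora75, which lies within an exon in part. Among the hosts, Dkc1 and Ncl were 3.07-fold and 3.09-fold lower, and Nop56 and Nop58 were 2.33-fold and 2.36-fold lower. The small RNAs themselves are not analysed here.

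A start site of another gene on the opposite strand, within 1000 bases, was annotated for 7 of the 34 members, against 7.23% of 21951 protein-coding genes. Exons of a gene on the opposite strand overlapped 15 of the 34 members, among them Surf2 (with Surf1 and Surf4), Nop56 (with Idh3b) and Heatr1 (with Lgals8). No source used here says whether the counting used strand, so reads of such pairs may not be told apart. None of the opposite partners had a row in the Treg table. The overlap count stands without a share over all genes, and neither count has a share over the other lower genes. Nothing is read from them about the members.

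Promoter sequences, 250 bases before to 50 bases after the annotated start, were found in RefSeq (GRCm38.p6) for 30 of the 34 members, all but Npm1, Rrp12, Utp6 and Rrs1. The E-box CACGTG, which reads the same on both strands and is a binding sequence of Myc and related factors, was present in 9 of the 30 (30.0%). It was present in 8.09% of 27025 genes with such a window, in 81 of the 346 other lower genes of the Treg table (23.4%) and in 55 of the 651 higher genes (8.45%). The 9 stretches of 30 bases are shown because they carry this sequence, each 5′ to 3′ on the strand of its gene, with the E-box in capitals. Positions count the first E-box base from the RefSeq start site.

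Surf2: ggcgctctgtctCACGTGgtggctgcggcg
Mdn1: caacgtgaattccttcacCACGTGtgtgtc
Nop2: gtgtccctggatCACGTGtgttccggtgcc
Grwd1: aagggccggagtcgCACGTGtgaaaccgga
Ltv1: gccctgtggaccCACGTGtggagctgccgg
Pes1: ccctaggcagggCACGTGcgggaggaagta
Pno1: tgcgctgtacaaccacgCACGTGttcctct
Mybbp1a: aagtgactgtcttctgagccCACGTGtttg
Tsr1: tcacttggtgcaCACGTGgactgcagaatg

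These stretches lie at chr2:26916376-26916405 (Surf2, plus strand), chr4:32657139-32657168 (Mdn1, plus strand), chr6:125131811-125131840 (Nop2, plus strand), chr7:45830740-45830769 (Grwd1, minus strand), chr10:13193092-13193121 (Ltv1, minus strand), chr11:3963965-3963994 (Pes1, plus strand), chr11:17211540-17211569 (Pno1, minus strand), chr11:72441347-72441376 (Mybbp1a, plus strand) and chr11:74898092-74898121 (Tsr1, plus strand). The E-box began at position -60 in Nop2 and -20 in Surf2, ahead of the RefSeq start site, and between positions 3 and 41 in the other 7 genes, after that start site. GENCODE M21 starts Surf2 further upstream, at position 26916372 of chromosome 2, which places its E-box inside the gene. A match is a sequence only, and these data hold no measure of binding. Genes with and without the E-box were not set against each other, and any part of the E-box in the differences was not tested.

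The 250 bases before the RefSeq start site of Nop2 and Surf2 show the context of these 2 E-boxes, again in capitals, at chr6:125131633-125131882 and chr2:26916158-26916407 on the plus strand.

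Nop2: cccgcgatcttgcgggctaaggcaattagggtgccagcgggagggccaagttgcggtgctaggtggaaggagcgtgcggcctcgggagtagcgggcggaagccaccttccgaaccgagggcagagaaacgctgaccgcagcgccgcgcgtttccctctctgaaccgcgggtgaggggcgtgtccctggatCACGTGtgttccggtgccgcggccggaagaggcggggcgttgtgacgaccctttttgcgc
Surf2: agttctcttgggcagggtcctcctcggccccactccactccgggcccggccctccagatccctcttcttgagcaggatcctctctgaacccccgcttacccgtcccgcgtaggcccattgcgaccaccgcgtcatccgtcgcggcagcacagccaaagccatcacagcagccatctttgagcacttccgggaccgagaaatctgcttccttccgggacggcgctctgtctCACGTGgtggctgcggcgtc

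The GC box and TATAAA had much the same shares in the members and in the other lower genes of the table. Whether the E-box shares, 30.0% and 23.4%, differ was not tested. The GC box GGGCGG, searched on both strands, was present in 63.3% of the 30 members, in 63.6% of the other lower genes and in 62.1% of the higher genes, against 38.2% of all 27025 genes. TATAAA, searched the same way, was present in 10.0% of the members, 8.38% of the other lower genes, 14.6% of the higher genes and 15.7% of all genes. The median GC content of the windows was 60.2% for the members and 52.7% for all, and it was not taken over the other lower genes.

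The second comparison asked how co-culture with Treg cells changed primary microglia. Only 2 of the 34 genes, both of the small subunit, had a row, and both were higher in co-cultured microglia. Heatr1 had 25.87, 25.41 and 23.75 FPKM in co-cultured microglia and 7.66, 7.26 and 6.21 FPKM in control microglia. That is 25.0 ± 1.12 FPKM in co-culture and 7.04 ± 0.749 FPKM in control (SD, n = 3 each), 3.55-fold higher, with a log2 difference of 1.70 (SE 0.08). Noc4l, counterpart of a yeast protein that works with Nop14 on the small subunit, had 20.33, 20.35 and 19.83 FPKM in co-cultured microglia and 8.57, 8.94 and 8.54 FPKM in control microglia. It was 2.32-fold higher, with a log2 difference of 1.13 (SE 0.05). The groups did not overlap for either gene.

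The authors' deposited table gave log2 fold changes of 2.04 for Heatr1 and 1.43 for Noc4l, larger than those from FPKM. This was not particular to these genes. The deposited value minus the log2 ratio of mean FPKM had a median of 0.21 over the microglia table and 0.12 over the Treg table. Of the genes of the microglia table, 46.7% were higher without overlap and 46.9% were higher in the authors' deposited fold changes. Limma called 53.4% of the 1529 genes tested higher. The median log2 difference of all genes tested was 0.74. With equal table totals that median moved by -0.84, and Heatr1 was at 0.81 and Noc4l at 0.24, both still called higher. With quantile normalization the shift was -0.71, and Heatr1 was at 1.3 and Noc4l at 0.67.

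Heatr1 was thus the only member with a row in both tables, and it differed in opposite directions, lower in spinal cord Treg cells and higher in co-cultured microglia. The tables were normalized separately and share no samples, so the levels of one are not set against those of the other. Of the 159 further assembly genes 3 had a row in the microglia table. Ccdc86, a nucleolar protein placed with the large subunit genes, had 37.35, 36.06 and 37.10 FPKM in co-cultured microglia and 14.91, 16.06 and 14.59 FPKM in control microglia. It was 2.43-fold higher there and 2.54-fold lower in spinal cord Treg cells, with 25.23, 23.49 and 27.43 FPKM in the spinal cord and 58.61, 63.23 and 71.61 FPKM in the spleen. Nufip1, an snoRNP assembly factor, was 2.15-fold higher, and Utp14b was lower at under 1 FPKM in every library.

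**Figure D5:**
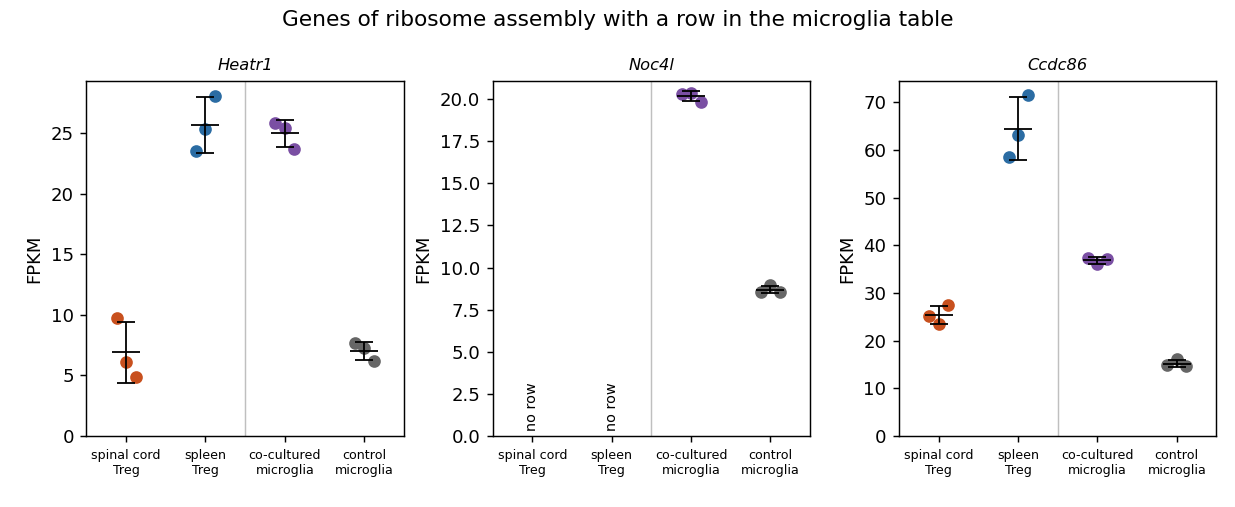
FPKM of Heatr1, Noc4l and Ccdc86 by library, with the mean and SD of 3 libraries a group, spinal cord before spleen Treg cells and co-cultured before control microglia, the 2 tables set apart by a line because they were normalized separately. Heatr1 and Ccdc86 are low in spinal cord Treg cells and high in co-cultured microglia, and Noc4l has no row in the Treg table.

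The Myc network had 5 of 11 genes in the microglia table, in both directions. Max, the partner of Myc, was 2.26-fold higher and Mxd1 3.21-fold higher in co-culture, while Mxi1 was 2.49-fold lower and Mxd4 2.39-fold lower. Mycl was lower at under 1 FPKM in every library. No cytosolic ribosomal protein gene and no gene of RNA polymerase I had a row. Neighbouring pathways went both ways as deposited. Of 5 translation factor genes with a row 4 were higher and 1 lower. Mrpl13, a mitochondrial ribosomal protein gene, was 1.82-fold higher, and Prps2, of nucleotide synthesis, was 3.00-fold lower. Of 23 cell cycle genes 3 had a row, 1 higher and 2 lower. Of 8 T cell markers only Lck had a row, with 0.54, 0.47 and 0.66 FPKM in co-cultured microglia and 0.17, 0.19 and 0.38 FPKM in control microglia, all under 1 FPKM. The Treg marker Ikzf2, 1 of 6 with a row, had 1.18, 1.24 and 1.14 FPKM in co-cultured microglia and 0.48, 0.41 and 0.42 FPKM in control microglia, 2.72-fold higher. Of 5 oligodendrocyte markers 3 had a row, with Cnp 1.93-fold and Mag 3.02-fold higher and Mbp 2.65-fold lower in co-culture, and of 4 astrocyte markers Aqp4 had a row and was 2.73-fold lower. Of 10 microglia and macrophage markers 5 had a row. Aif1 was 3.62-fold and Itgam 2.14-fold higher in co-culture, while Cd14 was 3.02-fold, Tmem119 2.52-fold and Cx3cr1 93.3-fold lower. Cx3cr1 had 1.26, 1.36 and 1.74 FPKM in co-cultured microglia and 137, 144 and 126 FPKM in control microglia. The 5 markers summed to 620, 589 and 603 FPKM in co-cultured microglia and 802, 783 and 784 FPKM in control microglia. The part of all these cells in the result was not tested.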

How the data were processed

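Poly(A) RNA of 12 mouse libraries, captured on oligo(dT) beads according to the labels' protocols, was quantified by the authors. The deposited FPKM values, the log2 fold changes and the Q values (adjusted p-values) of 1 table per comparison are the authors', per the file headers. The submitters' processing notes name Bowtie2, RSEM 1.3.1, DESeq2 1.4.5 and the build GRCm38.p6 but give no roles. No source used here says how the fold changes and Q values were obtained. Every deposited row had an absolute log2 fold change above 1 (smallest 1.0007 for Treg cells, 1.0006 for microglia) and a Q value under 0.05 (largest 0.0498 for Treg cells, 0.0497 for microglia). The header of the microglia fold changes reads Young over Control. The word Young is used by no label, and the sign of the fold changes matched co-culture over control.

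Groups and replicate numbers came from the sample titles. From the FPKM values, genes with a mean of at least 1 were kept, which left 1072 of 1284 Treg genes and 1529 of 2186 microglia genes. log2(FPKM + 1) was fitted in limma 3.58.1 (R 4.3.3; eBayes with a mean-variance trend, two-sided, Benjamini-Hochberg adjustment over all genes kept, threshold 0.05), each table alone. Folds are ratios of mean FPKM. The fit was run on simulated data in which most genes were unchanged. The deposited genes were selected as changed, so nothing is read from that run about the calls. No 2 libraries of a group were copies, since at most 0.545% of Treg genes and 3.39% of microglia genes had equal values. Python 3.11.15 with pandas 2.3.3, numpy 2.4.6 and matplotlib 3.10.9 was used for the rest, GENCODE M21 for gene positions and RefSeq for promoters.

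The members, their roles and the further gene lists were chosen with earlier results of these data known. All members were named. Values in every library were given for the member in both tables and, per role, for those with the highest mean or the largest difference, and for others where they added to the account. A further list is not reported here. Of the others at most 4 genes each were given, and the 3 most alike genes by Pearson's r. Alternatives were another pseudocount, no filter, equal table totals, quantile normalization, a replicate block, eBayes without a trend, each library left out and the authors' fold changes.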

Additional observations from a re-analysis of the deposited data

How the results depend on the processing

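The members were chosen by their change in these libraries, from tables of genes selected as changed, so that their calls under other settings are a description and no sign of stability. All 33 were called lower in spinal cord Treg cells, and both microglia members higher in co-culture, by limma under every alternative run that gives a call. Scaling to equal table totals moved the members' median log2 difference to -2.19 in the Treg cells (-1.27 as reported) and 0.53 in the microglia (1.41 as reported), and cut the genes called higher to 266 of 1072 (654 as reported) and 537 of 1529 (817 as reported). Quantile normalization moved the medians to -1.82 and 0.98. In the microglia a pseudocount of 0.1 gave 1.51, the authors' deposited fold changes gave 1.74, and no filter on low values called 1150 genes lower (712 as reported). Leaving out 1 library gave medians between -1.36 and -1.22 and between 1.37 and 1.44. The count of ribosomal protein genes called higher, an alternative chosen after seeing the data, was 0 with equal totals (0 at an unadjusted p under 0.05 in limma) and 1 with quantile normalization (10 as reported). With the replicate block limma called 650 genes higher, 414 lower and all 33 members lower in the Treg cells, and 817 higher and 712 lower in the microglia. The numbers are not shown to pair samples: deviations of same-numbered libraries correlated by -0.003, -0.041 and -0.053 in the Treg cells and by -0.041, 0.149 and 0.175 in the microglia. With 3 libraries a group, unknown depth and tables of selected genes, these values cannot show how genes without a row behaved.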
